A study of Homo sapiens with 8 samples.

Results

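CpG methylation was followed at 3 intervals of human chromosome 20 that lie at the imprinted genes MCTS2, NNAT and L3MBTL1. The intervals were given by position on genome build hg19, at chr20:30134663-30135933 for MCTS2, chr20:36148604-36150528 for NNAT and chr20:42142365-42144040 for L3MBTL1. They held 73 of the 2862601 autosomal CpGs listed in any of the 8 libraries, with 17 at MCTS2, 31 at NNAT and 25 at L3MBTL1. The 55 CpGs listed within 5 kb of an interval, its flanks, served as the comparison, with 23 at MCTS2, 25 at NNAT and 7 at L3MBTL1. The CpGs were taken by position, at genes chosen with earlier results of these data known.

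The DNA came from HUES64, an established human embryonic stem cell line, in which DNMT3A and DNMT3B had both been knocked out, per the labels. It was read by reduced representation bisulfite sequencing (RRBS), which cuts out a CpG-rich part of the genome and then reads whether each cytosine was methylated. The 8 libraries came from passages 6, 7, 8, 11, 13, 17, 27 and 28, with 1 library at each passage, and all of them carry the double knockout. No library of unedited HUES64 cells was analysed here. Whether these cells were 1 clone or 1 culture sampled again and again is not in the labels. A p-value here therefore reflects how far single libraries scatter around a trend, and that scatter may be technical. Files of methylation calls hold no expression, so neither the cell type nor the knockout was checked against marker genes.

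DNMT3A and DNMT3B place methylation on unmethylated DNA, and DNMT1 copies it onto the new strand after replication. At an imprinted gene, expression depends on which parent a copy came from, and a control region differs in methylation between the maternal and paternal copies. A region that keeps this difference reads as intermediate methylation when both copies are counted together, as they are here, since the files do not separate alleles. MCTS2 is an intronless retrocopy of MCTS1 that lies in an intron of HM13 and is expressed from the paternal copy. NNAT, which encodes the small membrane protein neuronatin, lies in an intron of BLCAP and is also expressed from the paternal copy. L3MBTL1 encodes a chromatin protein with MBT repeats, related to the Polycomb group, and is expressed from the paternal copy in some human cells.

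The sequences below are shown because the libraries read methylation directly on them, and because they differ in what was read. Each is the stretch of 250 bases just before a gene start, taken from RefSeq on build GRCh38.p14 and printed 5′ to 3′ on the strand of the gene. Capitals mark CG dinucleotides listed in these libraries. The stretches are chr20:31547129-31547378 on the plus strand for MCTS2, chr20:37527877-37528126 on the minus strand for a start of BLCAP, and chr20:43507447-43507696 on the plus strand for a start of L3MBTL1. They were placed among the hg19 CpGs by the spacing of their CG dinucleotides, with no conversion of coordinates. For MCTS2, 17 listed CpGs fell on a CG of the 300 bases around the gene start and the next best placement matched 5. For BLCAP the numbers were 12 and 6, and for L3MBTL1 19 and 10.
MCTS2: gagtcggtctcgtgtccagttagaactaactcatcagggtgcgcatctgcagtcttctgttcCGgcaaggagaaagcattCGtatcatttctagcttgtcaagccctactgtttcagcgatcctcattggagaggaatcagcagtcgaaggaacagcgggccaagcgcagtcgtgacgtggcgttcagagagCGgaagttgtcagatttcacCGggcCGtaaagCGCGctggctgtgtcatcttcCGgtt
BLCAP: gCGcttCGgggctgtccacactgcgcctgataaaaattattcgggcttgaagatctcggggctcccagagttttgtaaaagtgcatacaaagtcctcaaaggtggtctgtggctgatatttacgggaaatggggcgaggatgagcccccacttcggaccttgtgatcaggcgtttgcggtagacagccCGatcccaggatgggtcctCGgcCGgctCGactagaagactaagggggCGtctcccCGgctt
L3MBTL1: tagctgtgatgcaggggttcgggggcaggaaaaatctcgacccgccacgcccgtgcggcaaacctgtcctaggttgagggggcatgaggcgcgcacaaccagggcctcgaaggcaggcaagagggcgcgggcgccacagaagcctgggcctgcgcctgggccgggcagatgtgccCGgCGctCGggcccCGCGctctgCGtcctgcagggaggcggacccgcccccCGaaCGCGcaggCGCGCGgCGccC

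All 17 listed CpGs of the MCTS2 interval lay in the 300 bases around the gene start, 8 of them in the stretch printed above and 9 just after the start. These were read at intermediate levels in every library, as described below for the interval. The BLCAP starts were almost free of methylation. Over 16 CpGs at hg19 chr20:36156092-36156526, around this start and a second one nearby, 2 of 1081 reads were methylated in the 8 libraries together, and the highest level in any library was 0.524% at passage 6. The L3MBTL1 start, beyond the 5 kb flank of the L3MBTL1 interval, held 19 CpGs at hg19 chr20:42136262-42136370. None of 1200 reads there was methylated, which would allow a share of up to 0.25% if every read were a separate fragment. Neighbouring CpGs share fragments, so this limit is too tight. By the best covered CpG of a library, the absence allows up to 10.3% at passage 6 (29 reads) and up to 30% at passage 8 (10 reads). Another BLCAP sequence and another L3MBTL1 sequence could not be placed. NNAT and HM13 are named only.

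Summed over all listed CpGs, the libraries held between 19898423 reads at passage 11 and 44599588 at passage 6. The intervals themselves were read thinly. Reads summed over CpGs ranged from 106 to 205 per library at MCTS2, from 157 to 443 at NNAT and from 105 to 399 at L3MBTL1. Those of the flanks ranged from 216 to 570, from 170 to 353 and from 31 to 102. One sequenced fragment covers several neighbouring CpGs, so summed reads are not separate molecules. The 95% Wilson intervals given here cover counting error only and are too narrow to that extent. Across the 215324 features tested genome-wide, which are the 1 kb tiles of the autosomes plus these intervals and flanks, the median level was 78.3% at passages 6 to 8 and 68.9% at passages 27 and 28. The median fitted change from passage 6 to passage 28 was -7.87 percentage points (interquartile range -17.7 to -1.71), and 82.8% of features had a fitted change below 0.

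NNAT was the member that lost methylation, and it did so late. At passages 6, 7 and 8 the NNAT interval was read at 82.3%, 90.0% and 79.6%, and at passages 11, 13 and 17 at 85.4%, 93.6% and 83.7%. It stood at 14.2% (Wilson interval 10.8 to 18.5) at passage 27 and 26.6% (22.7 to 30.9) at passage 28. The 6 libraries up to passage 17 lay between 79.6% and 93.6% and did not overlap with the last 2. The step from passage 17 to passage 27 was -69.4 points, against 1.36 points over the whole span from passage 6 to passage 17. A level this high at passages 6 to 17 goes against the intermediate level that an imprinted region with 1 methylated copy would give. The interval is therefore called here by its position.

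To test the trends, a quasi-binomial logistic model of reads of either state against passage number was fitted to each feature. Limma moderated its dispersion over all features. The p-values of its two-sided F test were adjusted over all 215324 features by the Benjamini-Hochberg method. A call needed both an adjusted p under 0.05 and 10 points or more of fitted change from passage 6 to passage 28. By this rule 23.5% of all features lost methylation and 0.101% gained it. Among the 3 intervals, 1 was called, as a loss, and none as a gain, so the count of 1 in 3 is near the background share. NNAT was the interval called. Its fitted change was -65.8 points (limma-moderated fit, adjusted p = 1.66e-06, n = 8 libraries). Of all features, 1550 (0.720%) had a fitted change as low or lower by summed reads.

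The fall of the NNAT interval rests on passages 27 and 28 together. With either of them left out the call held, at -57.0 points without passage 27 (limma-moderated fit, adjusted p = 2.30e-05) and -68.0 points without passage 28 (adjusted p = 9.10e-05). A fit to passages 6 to 17 alone, with its change read between those passages, gave 2.24 points (limma-moderated fit, adjusted p = 0.859). By that fit 6.1% of 209777 features lost methylation and 0.106% gained it. The slope of the interval's level over all 8 libraries was -3.12 ± 0.675 points per passage (SE), with r = -0.884 (two-sided exact permutation p = 0.0250) and rho = -0.429 (exact permutation p = 0.299). When passages 27 and 28, which lie farthest from the median passage of 12, were left out, r was 0.201 (exact permutation p = 0.697, n = 6), so the relation rests on those 2 libraries. The p-values of slopes and of differences between slopes are not adjusted.

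**Figure D1:**
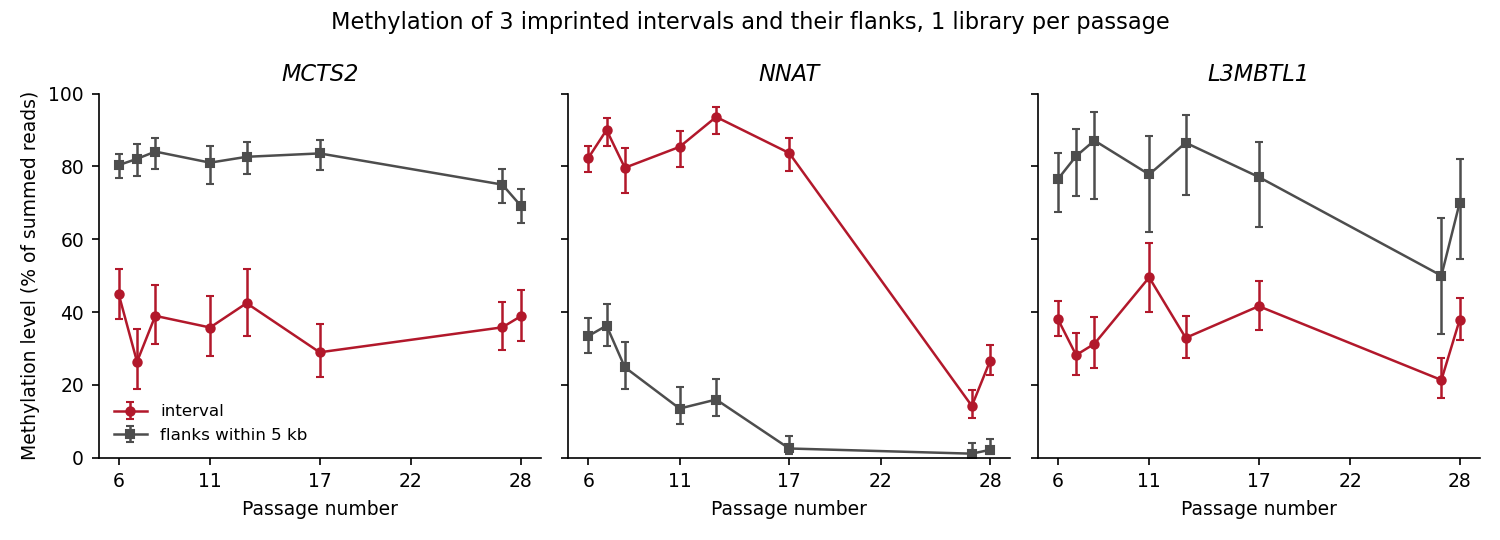
Methylation level (percent of summed reads, vertical axis) against passage number (horizontal axis) for the MCTS2, NNAT and L3MBTL1 intervals and their flanks within 5 kb, with 95% Wilson intervals as bars and 1 library per point. The NNAT interval sits between 79.6% and 93.6% up to passage 17 and at 14.2% and 26.6% at passages 27 and 28, while its flanks go from 33.4% at passage 6 to 2.56% at passage 17.

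The flanks of NNAT lost methylation earlier than the interval. At passages 6, 7 and 8 they were read at 33.4%, 36.3% and 24.9%, and at passages 11, 13 and 17 at 13.5%, 16.0% and 2.56%. At passages 27 and 28 they were at 1.14% and 2.20%. The 3 earliest libraries lay above all 5 later ones, and the last 3 did not exceed 2.56%. The fitted change was -34.1 points (limma-moderated fit, adjusted p = 2.40e-07), and from passage 6 to passage 17, fitted to those libraries alone, it was -31.3 points (adjusted p = 9.71e-06). The slope over 8 libraries was -1.43 ± 0.315 points per passage (SE), with r = -0.879 (exact permutation p = 0.00538) and rho = -0.929 (exact permutation p = 0.00223). Without passages 27 and 28 the slope was -2.92 ± 0.476 points per passage and r was -0.951 (exact permutation p = 0.00556, n = 6). Of the 3 flanks, NNAT's was 1 called, where 23.5% of all features were.

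Interval and flanks of NNAT thus stood farthest apart at passage 17. The interval minus its flanks was 48.9, 53.7 and 54.8 points at passages 6, 7 and 8. It was 71.8, 77.6 and 81.1 points at passages 11, 13 and 17. At passages 27 and 28 it was 13.1 and 24.4 points, below every earlier library. Over passages 6 to 17 the difference rose by 3.17 ± 0.473 points per passage (SE, r = 0.958, exact permutation p = 0.00139, n = 6), the smallest p that 6 libraries allow. Over all 8 libraries its slope of -1.70 ± 0.913 points per passage missed the threshold (exact permutation p = 0.109, n = 8).

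The 31 CpGs of the NNAT interval fall into a pair of stretches that ended far apart in level, though the second also ended below its earlier libraries. The listed CpGs of the locus were grouped wherever more than 300 bases separated neighbours, a split made after the values were seen and therefore described without a test. The first stretch, 17 CpGs at chr20:36148615-36148995, was read at 77.4%, 84.8%, 66.3%, 82.3%, 91.4% and 78.2% at passages 6, 7, 8, 11, 13 and 17. At passage 27 it had 0 methylated of 256 reads, and at passage 28 it had 0 of 273. The second stretch, 14 CpGs at chr20:36149891-36150113, lay 895 bases farther on. It was read at 92.3%, 95.7%, 95.8%, 91.2%, 100% and 98.6% up to passage 17, at 75% (Wilson interval 62.8 to 84.2) at passage 27 and at 69.4% (62.1 to 75.8) at passage 28. In every library the second stretch was the higher one.

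The absence of methylated reads from the first stretch can be read off its best covered CpG, where every read is a separate fragment unless it is a duplicate. At chr20:36148649, 30 of 37, 20 of 20 and 5 of 7 reads were methylated at passages 6, 7 and 8, and 13 of 13, 18 of 19 and 20 of 24 at passages 11, 13 and 17. None of 30 was methylated at passage 27 and none of 36 at passage 28, which allows shares of up to 10% and 8.33% at that depth. Not all CpGs of the stretch were high before. At chr20:36148730 the level was 25% at passage 11, 72.7% at passage 13 (8 of 11 reads) and 17.6% at passage 17 (3 of 17 reads). At chr20:36148994 none of the 9 reads of passages 11 to 17 was methylated, against 11 of 17 at passages 6 to 8.

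The second stretch was uneven at the last passages. Its first 6 CpGs, from chr20:36149891 to chr20:36149938, had only methylated reads at passages 27 and 28. At the first of them these were 4 of 4 and 11 of 11 reads. At chr20:36150087, 8 of 8 reads were methylated at passage 27 and 7 of 14 at passage 28. At chr20:36150103, within 20 bases of it, 1 of 8 and 3 of 16 were methylated, after 21 of 23 at passages 6 to 8. The last CpG, chr20:36150112, had 1 of 8 and 3 of 15 methylated reads. None of the 31 CpGs had 10 reads in every library.

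**Figure D2:**
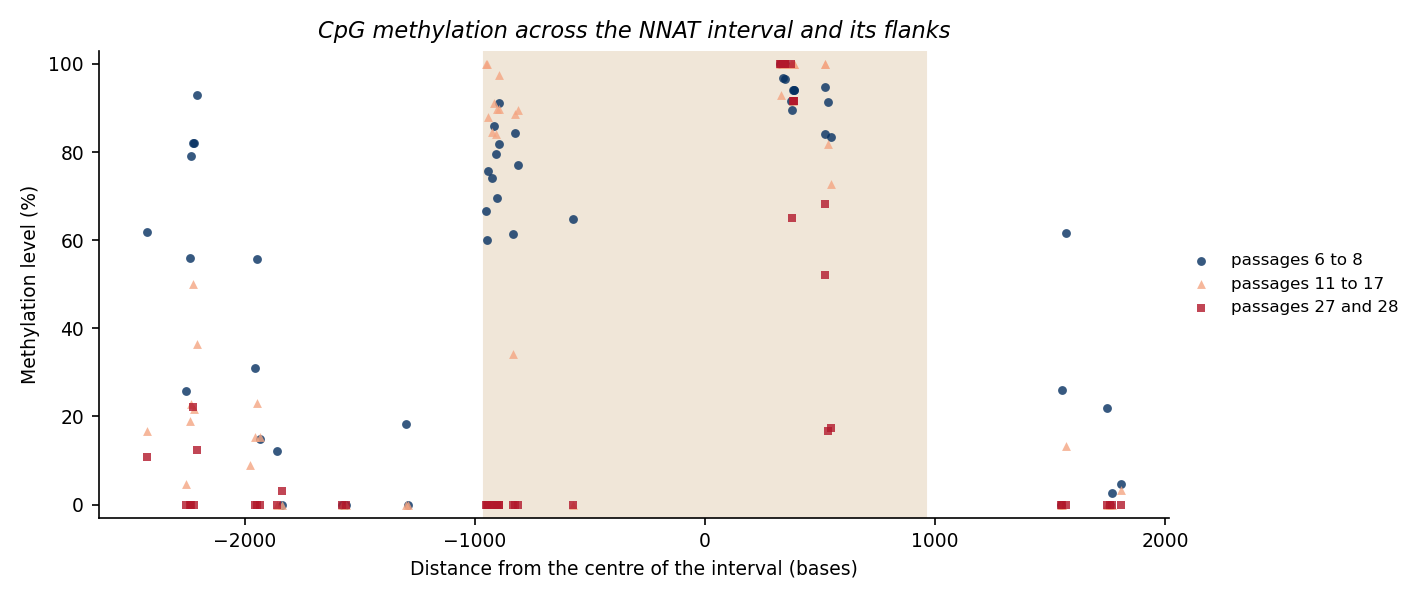
Methylation level of listed CpGs at the NNAT locus (percent of reads, vertical axis) against their distance from the centre of the interval in bases (horizontal axis), with reads pooled over passages 6 to 8, 11 to 17, and 27 and 28, and the interval shaded. A CpG is drawn for a pool where it has at least 5 reads. At passages 27 and 28 every CpG drawn of the first stretch of the interval sits at 0, and most of the second stretch stays above 60%.

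By single CpGs, 18 of the 27 interval CpGs with at least 5 pooled reads at both ends of the series were above 80% at passages 6 to 8, and none was under 20%. At passages 27 and 28, 15 were under 20%, 13 of them at 0, and 9 were above 80%. The median level of these CpGs was 85.9% early and 16.7% late. In the flanks, 18 CpGs at chr20:36147141-36148276 were read at 41.8%, 39.9%, 33.3%, 19.1%, 22.1% and 3.85% at passages 6, 7, 8, 11, 13 and 17. They were at 2.06% and 3.11% at passages 27 and 28. The 7 CpGs on the other side, at chr20:36151116-36151374, were at 9.78%, 28.0% and 9.68% at passages 6, 7 and 8 and at no more than 3.13% afterwards.

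Individual flank CpGs started high as well. At chr20:36147330, the most read CpG of its group, 24 of 28, 14 of 21 and 11 of 13 reads were methylated at passages 6, 7 and 8. The numbers were 4 of 9, 5 of 17 and 1 of 18 at passages 11, 13 and 17, with none of 13 and none of 19 at passages 27 and 28. This CpG had thus lost most of its methylated reads by passage 17, when chr20:36148649 in the interval still had 20 of 24. Of the 14 flank CpGs on this side with at least 5 pooled reads at both ends, 11 were lower late than early. That count is near the background, since 82.8% of all features had a fitted change below 0. By the last 2 libraries 10 were at 0, and 3 of the 14 had been at 0 already at passages 6 to 8. Some of these late pools were small, with 0 of 9 reads at chr20:36147343 and 0 of 5 at chr20:36147986.

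**Figure D3:**
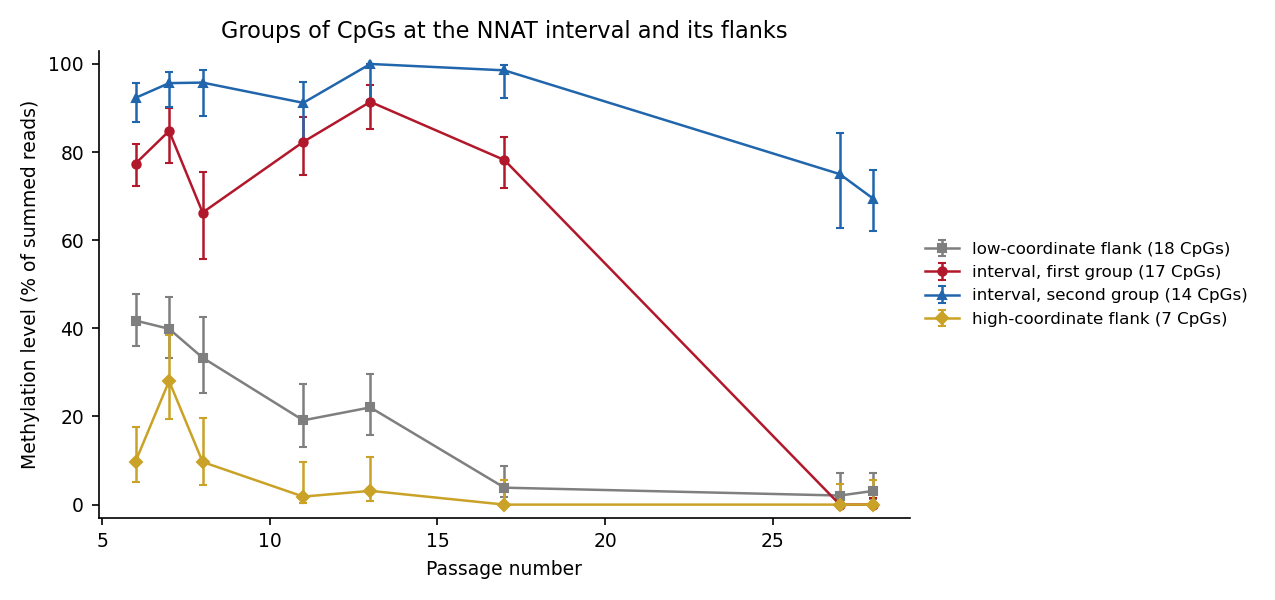
Methylation level (percent of summed reads, vertical axis) against passage number (horizontal axis) for the 4 groups of CpGs at the NNAT locus, parted by gaps of more than 300 bases, with 95% Wilson intervals as bars. The flank groups are near 0 by passage 17, the first interval group goes from 78.2% at passage 17 to 0 at passage 27, and the second interval group stays at 69.4% or more.

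MCTS2 stayed at intermediate levels at every passage. At passages 6, 7 and 8 the interval was read at 44.9% (Wilson interval 38.2 to 51.7), 26.4% (19.0 to 35.3) and 39.0%. It was at 35.8%, 42.5% and 29.0% at passages 11, 13 and 17, and at 35.8% and 38.8% at passages 27 and 28. The lowest and highest libraries were passages 7 and 6, and the last 2 lay inside the range of the first 6. The fitted change of -1.97 points did not pass the test (limma-moderated fit, adjusted p = 0.827). The slope was -0.0255 ± 0.295 points per passage (SE), with r = -0.0352 (exact permutation p = 0.936, n = 8) and rho = -0.167 (exact permutation p = 0.703). Fitted to passages 6 to 17 alone, the change over that span was -8.50 points, which did not pass either (limma-moderated fit, adjusted p = 0.578).

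Of the 17 MCTS2 CpGs, 13 lay between 20 and 80% at passages 6 to 8 and 16 did so at passages 27 and 28, and none exceeded 80%. The median over CpGs was 31.7% early and 40.0% late. Only 2 had 10 reads in every library, and both varied from library to library without an order in passage. At chr20:30134994 the level was 46.2%, 25% and 54.5% at passages 6, 7 and 8, and 47.4%, 53.8% and 6.25% at passages 11, 13 and 17. It was 62.5% at passage 27 and 20% at passage 28. At chr20:30135012, 18 bases away, the range was from 5.88% at passage 17 to 60.0% at passage 27. At 10 to 26 reads per library, such a CpG places a level only coarsely.

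The flanks of MCTS2 were well above the interval in every library. At passages 6, 7 and 8 they were read at 80.4%, 82.1% and 84.1%, and at passages 11, 13 and 17 at 81.0%, 82.6% and 83.6%. At passages 27 and 28 they were at 75% and 69.3%, below all earlier libraries. The fitted change of -9.92 points had an adjusted p of 0.0100 (limma-moderated fit) but fell short of the 10 points required for a call. It was -5.45 points without passage 28 (adjusted p = 0.306), and 2.25 points from passage 6 to passage 17 in a fit to that span (adjusted p = 0.803). The low-coordinate side alone gave -0.117 points (adjusted p = 0.991) and the high-coordinate side alone -14.7 points (adjusted p = 0.00294).

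Within the high-coordinate flank of MCTS2, neighbouring CpGs differed widely. The CpG at chr20:30137171, singled out after its values were seen, was read at 85.7%, 77.3%, 66.7% and 71.4% at passages 6, 7, 8 and 11. It was at 36.8% and 44.4% at passages 13 and 17, with 0 of 10 reads at passage 27 and 1 of 21 at passage 28. At chr20:30137255, 84 bases away, the level was between 79.2% and 100% in all 8 libraries, and all 23 and 42 reads of passages 27 and 28 were methylated. The interval minus its flanks had a slope of 0.448 ± 0.370 points per passage (SE) and missed the threshold (exact permutation p = 0.265, n = 8).

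The L3MBTL1 interval was likewise intermediate. At passages 6, 7 and 8 it was read at 38.1% (Wilson interval 33.5 to 43.0), 28.2% and 31.3%, and at passages 11, 13 and 17 at 49.5% (40.1 to 58.9), 32.9% and 41.6%. It was at 21.4% (16.3 to 27.5) at passage 27 and at 37.9% (32.2 to 43.9) at passage 28. Passage 27 was the lowest library, while passage 28 lay among the earlier ones. The fitted change of -3.48 points did not pass the test (limma-moderated fit, adjusted p = 0.694) and was 4.20 points without passage 27 (adjusted p = 0.660). The slope was -0.215 ± 0.396 points per passage (SE), with r = -0.217 (exact permutation p = 0.598, n = 8) and rho = -0.0476 (exact permutation p = 0.935).

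Passages 27 and 28 stood farther apart in the second of the CpG groups of L3MBTL1, parted by the same gap rule, than in the first. The first group, 12 CpGs at chr20:42142417-42142767, was at 31.1% and 35.5% in those libraries. The second, 13 CpGs at chr20:42143278-42143503, was at 11.0% (Wilson interval 6.25 to 18.6) and 39.6% (32.2 to 47.5). Its CpGs at chr20:42143278, chr20:42143286 and chr20:42143297 each had 0 of 11 methylated reads at passage 27 and 14 of 21 at passage 28. These lie close together and can share fragments, so they are not separate observations. At chr20:42143381, the most read CpG of the group, 10 of 11 reads were methylated at passage 11, against 3 of 14 at passage 8 and 14 of 36 at passage 13. By summed reads, libraries a single passage apart thus differed by more in this group than passage 6 did from passage 28. At chr20:42143381 this did not hold, with 34.0% at passage 6, 15.4% at passage 27 and 21.1% at passage 28.

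Of 21 L3MBTL1 CpGs with at least 5 pooled reads at both ends, 19 lay between 20 and 80% early and 12 late, with 9 under 20% late and none above 80% at either time. Their median level was 36.4% early and 22.2% late. Among the 3 CpGs with 10 reads in every library, chr20:42142534 had the largest fall in level, from 40.8% of 76 pooled reads at passages 6 to 8 to 27.0% of 63 at passages 27 and 28. The largest gain in level was at chr20:42142417, from 35.8% of 67 reads to 54.4% of 57. Its values were 38.7%, 47.1% and 21.1% at passages 6, 7 and 8, 50%, 58.8% and 23.1% at passages 11, 13 and 17, and 55.9% and 52.2% at passages 27 and 28. Passage 13 was thus above both late libraries, and passage 17 was near the low of passage 8. These single CpGs were not tested.

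All 7 flank CpGs of L3MBTL1 lay on its low-coordinate side. They were read at 76.5%, 82.8%, 87.1%, 77.8%, 86.5% and 77.1% at passages 6, 7, 8, 11, 13 and 17, and at 50% (Wilson interval 34.1 to 65.9) and 70.0% (54.6 to 81.9) at passages 27 and 28. The fitted change of -18.4 points did not pass the test (limma-moderated fit, adjusted p = 0.0914), and it was -24.4 points without passage 6 (adjusted p = 0.0433) and -8.48 points without passage 27 (adjusted p = 0.553). The pair of flank CpGs nearest the interval, at chr20:42142236-42142258, had 33 of 48 methylated reads at passages 6 to 8 and 2 of 14 at passages 27 and 28. The interval minus its flanks had a slope of 0.827 ± 0.446 points per passage (SE) and missed the threshold (exact permutation p = 0.116, n = 8).

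**Figure D4:**
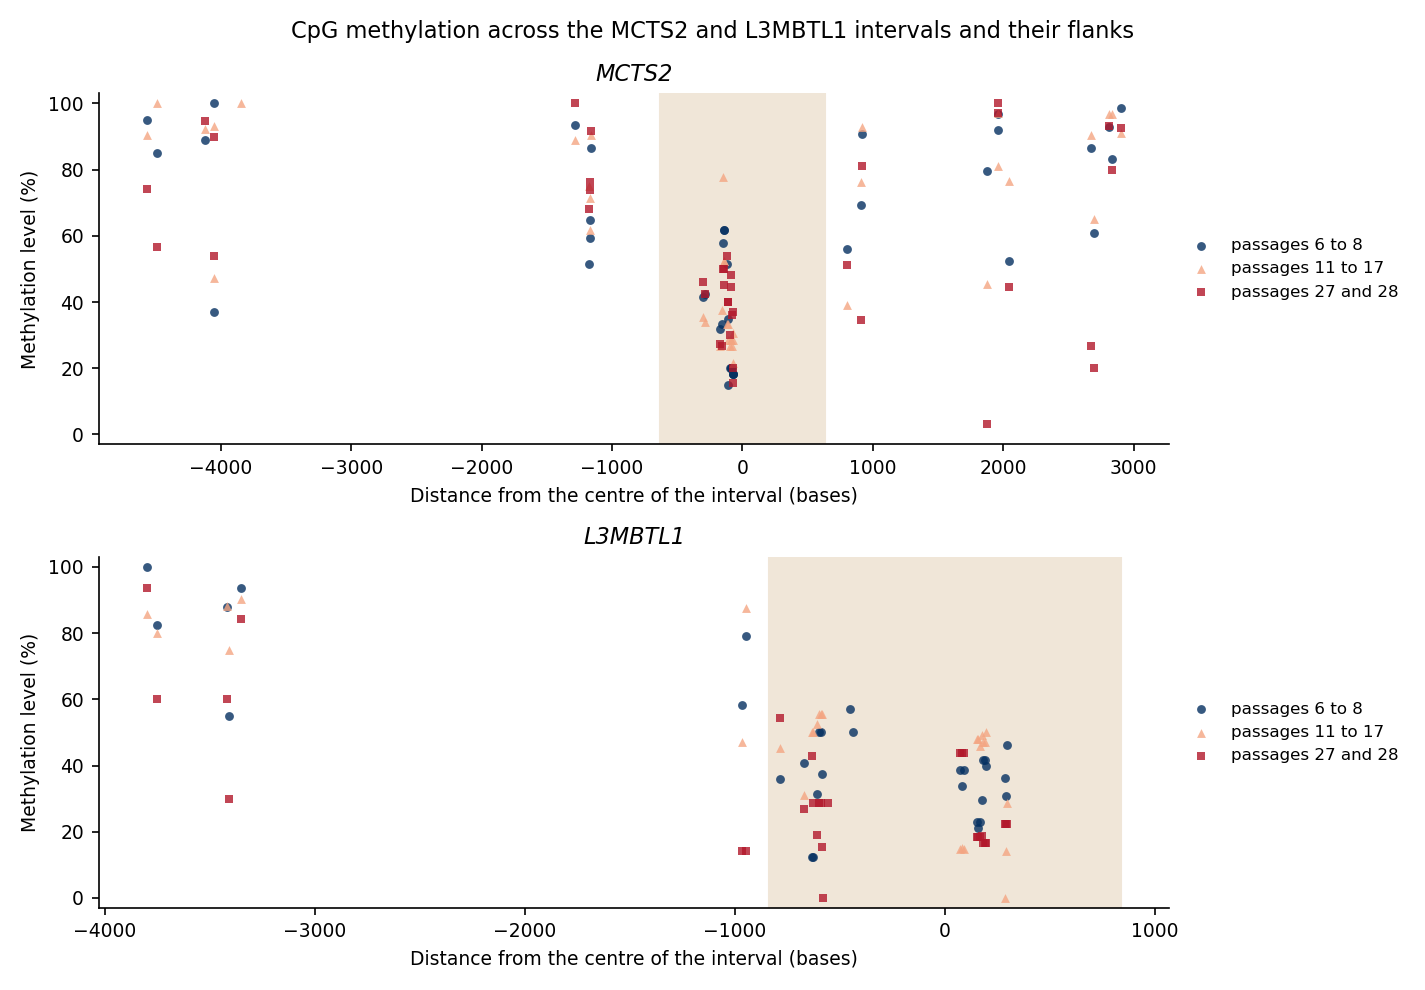
Methylation level of listed CpGs at the MCTS2 and L3MBTL1 loci (percent of reads, vertical axes) against their distance from the centre of the interval in bases (horizontal axes), with reads pooled over passages 6 to 8, 11 to 17, and 27 and 28, and the intervals shaded. A CpG is drawn for a pool where it has at least 5 reads. None of the 17 MCTS2 interval CpGs exceeds 80% in either the early or the late pool, and most CpGs of both flanks lie above the intervals at passages 6 to 8.

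Set side by side by summed reads, the order of the 3 intervals differed between early and late passages. At passages 6 to 8 the pooled level was 84.0% at NNAT, 38.6% at MCTS2 and 33.8% at L3MBTL1. The libraries of MCTS2 (26.4% to 44.9%) and L3MBTL1 (28.2% to 38.1%) overlapped there, and NNAT lay above both. At passages 27 and 28 the pooled level was 37.3% at MCTS2, 30.6% at L3MBTL1 and 21.5% at NNAT. The libraries of L3MBTL1 (21.4% and 37.9%) overlapped with those of both others. By summed reads, MCTS2 (35.8% and 38.8%) and NNAT (14.2% and 26.6%) did not overlap. The NNAT level depends on how reads fell between its stretches. The first, without methylated reads, gave 256 of 316 reads at passage 27 and 273 of 443 at passage 28. The second was at 75% and 69.4%. Late medians over CpGs with at least 5 pooled reads were 40.0% at MCTS2, 22.2% at L3MBTL1 and 16.7% at NNAT. Library levels with equal weight for each CpG were not compared.

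**Figure D5:**
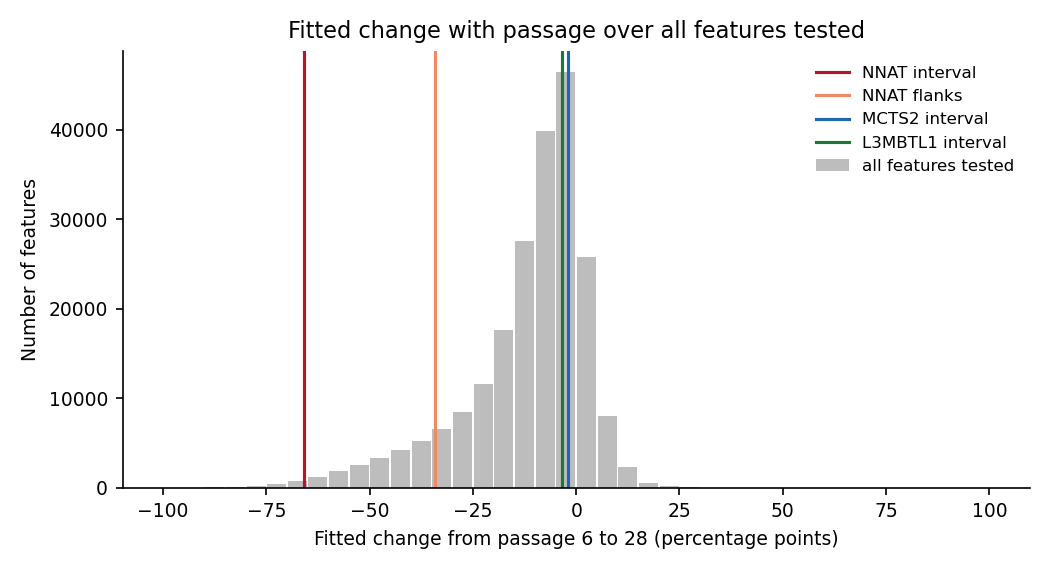
Number of tested features (vertical axis) by fitted change in methylation from passage 6 to passage 28 in percentage points (horizontal axis), with the 3 intervals and the NNAT flanks marked. By summed reads, the NNAT interval, at -65.8 points, lies in the far lower tail, where 0.720% of features are found. The MCTS2 and L3MBTL1 intervals, at -1.97 and -3.48 points, lie above the median of -7.87 points. With equal weight for each CpG, which is not drawn, L3MBTL1 was at -13.6 points, below the median of -7.96.

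The tiles whose levels were nearest to those of each interval are given as a description, since they were picked by that likeness. Among 34734 tiles of 1 kb with at least 100 reads in every library, the tile nearest to the NNAT interval by root-mean-square difference in level was chr16:89167001-89168000 (5.25 points). Its 22 CpGs were read at between 83.1% and 90.1% up to passage 17 and at 22.5% and 22.6% at passages 27 and 28. The next was chr22:49009001-49010000 (5.70 points), at 22.2% and 38.8% in those last libraries. The tiles nearest to MCTS2 were chr7:158766001-158767000 (3.51 points) and chr2:70351001-70352000 (4.58 points). Those nearest to L3MBTL1 were chr19:54900001-54901000 (5.03 points) and chr2:91751001-91752000 (5.14 points). They are given by position only, since gene positions on hg19 were not used here.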

How the data were processed

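RRBS was read in 8 libraries, 1 per passage. Each deposited file lists CpGs of hg19, per the submitters' processing notes, with methylated and total reads written by the authors in the fourth column. A deposited score, 1000 times the share of methylated reads, follows it and was not used. What aligner, caller or filters were used, and whether duplicates were removed, is not given in the sources used here.

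CpGs were matched by position, without use of the strand. Reads were summed per interval, per flank and per autosomal 1 kb tile, and features with at least 3 CpGs, 10 reads in every library and 10 reads of each state were tested. The quasi-binomial fit used R 4.3.3 and limma 3.58.1 (squeezeVar), with the dispersion not under 1, and was tested on simulated data. Slopes were tested over all 40320 orders of the libraries, or 720 for 6. In the MCTS2 and L3MBTL1 intervals, CpGs with the largest fall or gain between passages 6 to 8 and 27 and 28 were named. They were taken among those with 10 reads in every library. Other CpGs named, among them all those at NNAT, were the most read of a group or were picked with their values known. These did not need 10 reads in every library. The tiles nearest to an interval were those with the smallest root-mean-square difference. The members and lists were chosen with earlier results of these data known. Start sites of other imprinted genes were not analysed here, since no hg19 annotation was used. Alternatives covered coverage, CpG weighting, flanks, passage scale, test, dispersion and omitted libraries.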

Additional observations from a re-analysis of the deposited data

How the results depend on the processing

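The NNAT interval and its flanks kept their loss and their call under every alternative that could be run, with 1 exception. That was the NNAT interval over passages 6 to 17, at 2.24 points between those passages against -65.8 points. The size of its loss depended on the CpGs and their weight. It was -50.7 points with equal weight for each CpG and -82.6 points with CpGs of at least 5 reads in every library. Fits to passages 6 to 17 were read at passages 6 and 17, and all others at passages 6 and 28. With each library left out in turn, the fitted change ranged from -71.5 to -57.0 points for the NNAT interval and from -35.8 to -31.5 for its flanks. It ranged from -5.09 to 3.17 for the MCTS2 interval, from -12.4 to -5.45 for its flanks, from -10.2 to 4.20 for the L3MBTL1 interval and from -25.5 to -8.48 for its flanks. Interval minus flanks, over 22 passages, ranged from 2.80 to 15.5 points at MCTS2, from -46.5 to -20.6 at NNAT and from 14.9 to 22.9 at L3MBTL1. The calls over all features ranged from 34616 (without passage 28) to 52147, against 50902.

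The MCTS2 flanks passed the call rule with CpGs of at least 5 reads in every library (-12.0 points), without CpGs of very high coverage (-13.4), on the high-coordinate side alone (-14.7), and without passage 6, 7, 17 or 27. They turned to 2.25 points over passages 6 to 17. The MCTS2 interval turned to 4.87 points with equal weight for each CpG and to 3.17 without passage 6. The L3MBTL1 interval turned to 0.815 points at 5 reads, 4.20 without passage 27 and 5.55 over passages 6 to 17. With equal weight for each CpG it was at -13.6 points, without a call (limma-moderated fit, adjusted p = 0.492). The median of all features by that weighting was -7.96 points. The L3MBTL1 flanks were at 0.341 points over passages 6 to 17, and were called without passage 6 (-24.4). The cause of these shifts was not tested.

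Interval minus flanks passed at MCTS2 with equal weight for each CpG (16.3 points, exact permutation p = 0.0328) and turned to -7.13 points over passages 6 to 17. At NNAT it was -37.3 points, and passed at 5 reads (-62.7, exact permutation p = 0.0348) and against the high-coordinate flank (-53.1, exact permutation p = 0.0366). With equal weight for each CpG it was -19.6 points and did not pass (exact permutation p = 0.289). Over passages 6 to 17 it turned to 34.9 points (exact permutation p = 0.00139). Calls numbered 26705 of 78392 features at 5 reads, 5607 of 11745 at 10 reads, 13012 of 209777 over passages 6 to 17 and 33534 of 215324 with limma on logit levels. At 10 reads the MCTS2 and NNAT intervals and the NNAT flanks had too few CpGs to be tested, as did the L3MBTL1 flanks at 5 or 10 reads, within 2 kb and on the high-coordinate side. The differences that need them could not be computed either. No paired analysis was possible because only 1 library exists per passage here. Depth limits what single CpGs show: 10 reads in every library were reached by 2 CpGs at MCTS2, 3 at L3MBTL1 and none at NNAT.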
